A study of Mus musculus with 6 samples.

Results

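Receptors for serotonin, calcitonin gene-related peptide (CGRP), thromboxane, the prostaglandins and adenosine were followed in natural killer cells (NKC) of the spleen. The set named 10 genes, Htr1b, Ramp1, Calcrl, Tbxa2r, Ptger2, Ptger4, Ptgir, Ptgdr, Adora2a and Adora2b. A gene was represented by every array probe set that carried its symbol alone, which gave 14 of the 34945 probe sets named with 1 gene, for 8 of the 18193 genes that had one. Adora2a and Adora2b, the A2 adenosine receptors, had no probe set under their symbols in the annotation used and were not analysed here. The set was chosen by the differences between these same arrays, because Htr1b and Ramp1 were higher and Tbxa2r lower without Runx3. The values of the members in this comparison therefore describe the set, and no test of them is given.

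The Runx3-/- group was NKC of 3 ICR mice with both Runx3 alleles mutant, and the WT group was NKC of 3 Runx3 +/+ ICR mice, all aged 6 weeks. No cell was treated or activated. Fresh spleen cells of both groups were depleted of other lineages and then sorted for DX5, an epitope of integrin alpha 2 that basophils carry as well as NKC. The Runx3 deletion was not limited to NKC by any Cre, so every cell of the mutant mice lacked the gene through development. The sex label of every sample read male and female although the design spoke of individual mice, so the sex of a given array was unknown. Total RNA was hybridised to Affymetrix mouse expression arrays, 1 per sample, and signals are given as log2 GC-RMA values.

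Between 17074 and 17771 of 45101 probe sets per array had a log2 signal of at least 5, the level used here for a gene to count as measurable, and 9545 genes reached it on at least 1 array. Pairs of arrays correlated at r of 0.950 to 0.974 within groups and 0.925 to 0.960 between groups. The Runx3 probe set read 7.76, 8.51 and 8.68 on the Runx3-/- arrays, against 10.11, 11.56 and 10.73 on the WT arrays (log2 difference -2.48, limma with Benjamini-Hochberg adjustment over all tested genes, adjusted p = 0.0565). Of 11 NKC markers, all were measurable, Ncr1 and Klrd1 included, and the log2 of their summed signal was 17.36 to 17.54 in Runx3-/- and 17.34 to 17.62 in WT. Eomes was lower without overlap, with means of 13.13 in Runx3-/- and 13.83 in WT, and the groups overlapped for the other NKC markers. The median log2 difference over all tested genes was -0.13, and differences of the receptors can be read against it.

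These receptors let immune cells sense mediators released by platelets, mast cells, nerves and inflamed tissue. All but Ramp1 are G protein-coupled receptors. The prostaglandin E2 receptors EP2 and EP4, the prostacyclin receptor, the prostaglandin D2 receptor DP1, the A2 adenosine receptors and the CGRP receptor couple to Gs and raise cAMP, a signal known to restrain killing and cytokine release by NKC. The serotonin receptor 5-HT1B and the prostaglandin E2 receptor EP3 couple to Gi and lower cAMP. The thromboxane A2 receptor couples to Gq, which opens the phospholipase C route, and to G12 and G13. The CGRP receptor is a pair, in which the receptor protein made from Calcrl needs the accessory protein made from Ramp1, while Ramp2 or Ramp3 in its place makes an adrenomedullin receptor.

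Runx3 is a transcription factor of the RUNX family, whose canonical site is a hexamer with 4 variants. They are TGTGGT and also TGTGGC, along with TGCGGT and also TGCGGC. The promoters of the receptors are shown because the mutated gene codes for this factor. RefSeq promoters of the C57BL/6J reference (GRCm38.p6), running from 250 bases before to 50 bases after the annotated start, were found for all 8 measured members, 9 sequences in all since Tbxa2r had 2 starts. Capitals mark a RUNX hexamer, read on either strand, so that GCCACA is TGTGGC on the opposite strand. Each sequence is written 5′ to 3′ on the strand of its gene. Htr1b (chr9:81633783-81634082, minus strand) and Ramp1 (chr1:91179572-91179871, plus strand) were higher in Runx3-/-, Ptger2 (chr14:44987861-44988160, plus strand) had overlapping groups, and Tbxa2r (first start, chr10:81328018-81328317, plus strand) was lower.
Htr1b: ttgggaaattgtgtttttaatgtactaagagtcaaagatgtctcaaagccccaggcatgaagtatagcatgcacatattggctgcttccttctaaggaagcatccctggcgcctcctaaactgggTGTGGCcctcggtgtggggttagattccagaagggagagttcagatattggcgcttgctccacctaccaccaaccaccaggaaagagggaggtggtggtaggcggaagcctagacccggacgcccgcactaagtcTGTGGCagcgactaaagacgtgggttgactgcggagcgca
Ramp1: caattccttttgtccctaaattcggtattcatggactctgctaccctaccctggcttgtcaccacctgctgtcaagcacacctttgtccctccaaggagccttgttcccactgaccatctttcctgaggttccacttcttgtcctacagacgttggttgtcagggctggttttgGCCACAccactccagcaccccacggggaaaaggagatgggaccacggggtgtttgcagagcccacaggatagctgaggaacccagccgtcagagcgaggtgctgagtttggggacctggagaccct
Ptger2: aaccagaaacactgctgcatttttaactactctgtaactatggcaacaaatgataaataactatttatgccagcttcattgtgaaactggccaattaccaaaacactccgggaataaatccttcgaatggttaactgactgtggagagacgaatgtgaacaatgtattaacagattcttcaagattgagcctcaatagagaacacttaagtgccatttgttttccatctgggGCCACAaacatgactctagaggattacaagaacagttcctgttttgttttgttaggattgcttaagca
Tbxa2r: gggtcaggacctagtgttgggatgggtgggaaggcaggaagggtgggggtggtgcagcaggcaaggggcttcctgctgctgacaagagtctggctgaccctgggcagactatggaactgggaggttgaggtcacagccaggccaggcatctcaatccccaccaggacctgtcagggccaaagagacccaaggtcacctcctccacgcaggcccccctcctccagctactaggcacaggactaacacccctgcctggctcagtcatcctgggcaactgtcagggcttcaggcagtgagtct

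The Htr1b promoter held 2 matches, both TGTGGC on its own strand, at positions -125 to -120 and 11 to 16 counted from the first base of the gene as 1. The Ramp1 promoter held TGTGGC on the opposite strand at -76 to -71. The Ptger2 promoter held it on the opposite strand at -18 to -13. The matches did not overlap each other. Calcrl, Ptger4, Ptgir, Ptgdr and both Tbxa2r promoters held none of the 4 hexamers, so 3 of 9 sequences (33.3%) had a match. Of 32851 promoters of the same length, 45.2% held at least 1 of the hexamers, 18.9% held TGTGGC and 12.8% held 2 or more matches. The promoter of Adora2b, which had no probe set, held TGTGGC on its own strand at 32 to 37. With it, 4 of 10 member promoters had a match. Nothing is read from these shares of so few sequences, and a match or its absence in these windows says nothing on binding. The ICR strain can differ from the reference in these bases.

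**Figure D1:**
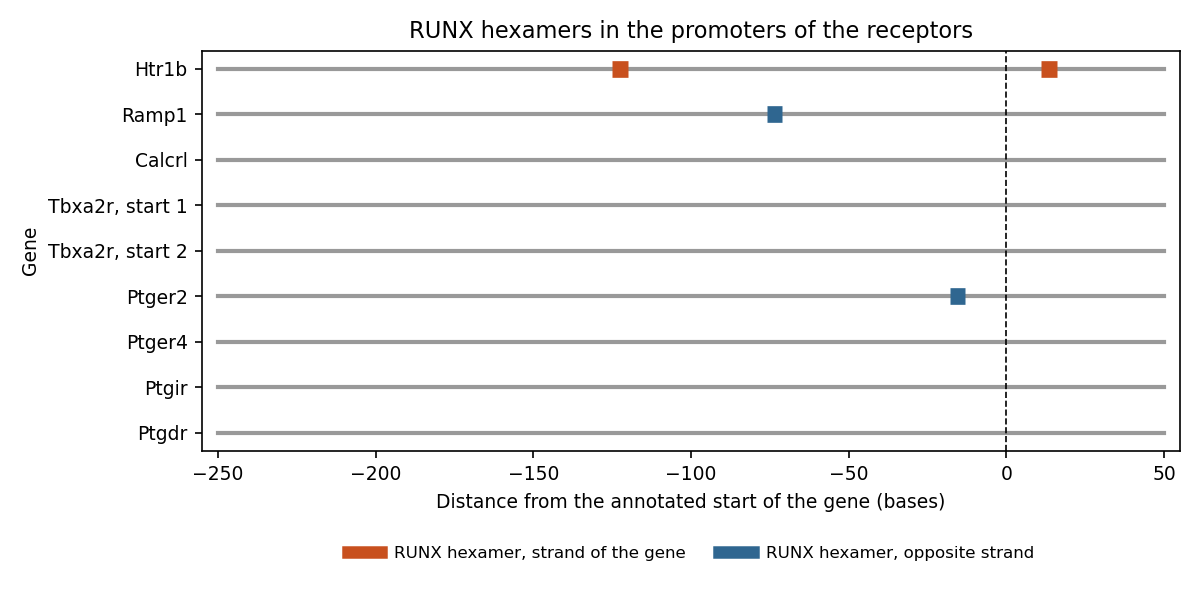
Positions of the 4 RUNX hexamers in 9 promoters of the 8 measured receptors, with the distance from the annotated start in bases on the x axis and 1 line per promoter. Orange blocks are matches on the strand of the gene and blue blocks matches on the opposite strand, and only Htr1b, Ramp1 and Ptger2 have any.

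Htr1b encodes 5-HT1B, the Gi-coupled serotonin receptor of the set. Its brighter probe set (1442077_at, designed on an expressed sequence tag) read 8.83, 8.62 and 8.73 on the Runx3-/- arrays, against 6.90, 6.49 and 6.90 on the WT arrays. All Runx3-/- arrays lay above all WT arrays, and the 3 Runx3-/- values were within a narrow band. The group means were 8.72 ± 0.10 in Runx3-/- and 6.76 ± 0.24 in WT (SD, n = 3 each), a log2 difference of 1.96 ± 0.21 (SE) or 3.89-fold. The other Htr1b probe set (1422288_at), designed on the RefSeq mRNA, read 2.43 to 2.53 in Runx3-/- and 2.47 to 2.49 in WT, below the measurable level on every array. The Htr1b difference thus rested on 1 probe set, and the probe set designed on the annotated mRNA gave no signal to compare. The place of the expressed sequence tag in the gene was not checked here, so that the signal belongs to Htr1b mRNA rests on the platform annotation. In sorted cells measured in bulk, more cells of a type and more RNA per cell cannot be told apart.

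Ramp1, the accessory protein that turns the Calcrl product into a CGRP receptor, behaved much like Htr1b. Its brightest probe set (1417481_at) read 10.13, 9.75 and 9.94 on the Runx3-/- arrays, against 8.12, 7.91 and 8.38 on the WT arrays. The groups did not overlap, and the log2 difference was 1.80 ± 0.22 (SE), 3.48-fold. A second Ramp1 probe set (1431413_at) was below the measurable level throughout, at 3.66, 3.68 and 3.52 in Runx3-/- and 3.11, 3.20 and 3.12 in WT, again without overlap. The remaining one (1447474_at) read 2.22 to 2.29 on all 6 arrays.

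Calcrl, the receptor protein of the CGRP pair, did not follow Ramp1. It read 9.11, 9.66 and 8.97 on the Runx3-/- arrays, against 9.54, 9.05 and 9.21 on the WT arrays (1425814_a_at). The groups overlapped fully, with a log2 difference of -0.02 ± 0.26 (SE). Its 2 other probe sets stayed between 2.28 and 2.63 on all arrays. Both partners of the CGRP receptor were thus measurable in both genotypes, and of the pair only Ramp1 gave groups without overlap.

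Tbxa2r, the thromboxane A2 receptor, was the 1 member that was lower. Its probe set (1419222_at) read 6.29, 5.77 and 5.54 on the Runx3-/- arrays, against 7.87, 7.80 and 8.73 on the WT arrays. The highest Runx3-/- array stayed below the lowest WT array, and WT replicate 3 stood above the other WT arrays. The means were 5.87 ± 0.38 in Runx3-/- and 8.13 ± 0.52 in WT (SD, n = 3 each), a log2 difference of -2.26 ± 0.32 (SE) or 4.80-fold lower.

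The receptors for prostaglandin E2 that raise cAMP overlapped between the genotypes. Ptger4 (EP4) read 13.03, 13.09 and 13.22 on the Runx3-/- arrays, against 13.22, 12.83 and 12.87 on the WT arrays (1424208_at), a log2 difference of 0.14 ± 0.20 (SE). Its second probe set (1421073_a_at) read 7.45, 8.26 and 8.40 in Runx3-/- and 8.19, 6.98 and 8.31 in WT. Both Ptger4 probe sets overlapped between the groups. Ptger2 (EP2) read 7.71, 7.05 and 7.94 on the Runx3-/- arrays, against 7.15, 7.79 and 7.90 on the WT arrays (1449310_at), a log2 difference of -0.05 ± 0.31 (SE), also with overlap.

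Ptgir, the prostacyclin receptor, lay at the edge of what could be measured. It read 5.55, 4.86 and 5.10 on the Runx3-/- arrays, against 4.18, 4.23 and 4.38 on the WT arrays (1427313_at). The groups did not overlap, and the log2 difference was 0.91 ± 0.23 (SE). Since all WT arrays and 1 Runx3-/- array were below log2 5, the signal was at least 1.12-fold higher in Runx3-/- when the WT mean was set to that level. Ptgdr, the DP1 receptor for prostaglandin D2, read 2.03 to 2.08 in Runx3-/- and 2.03 to 2.07 in WT and was measurable on no array.

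**Figure D2:**
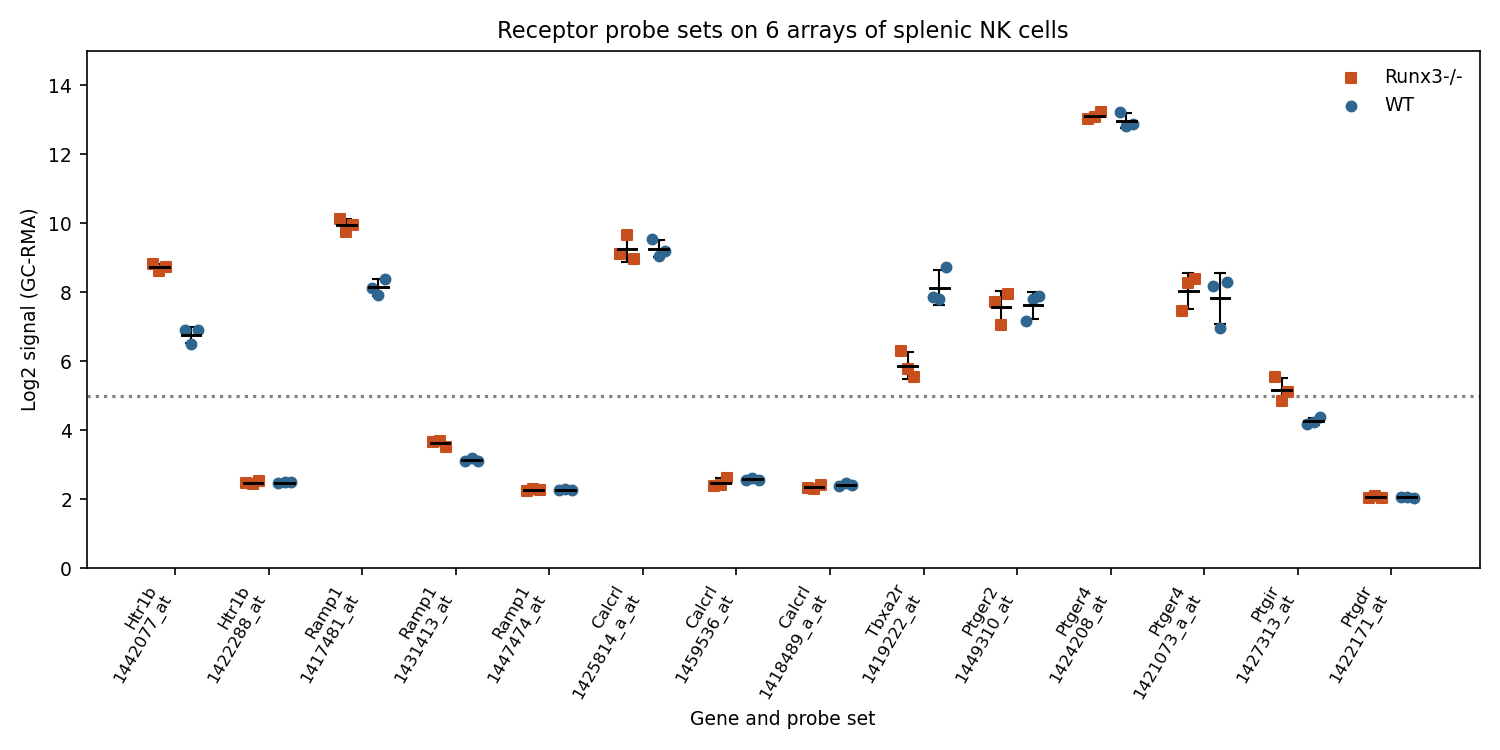
Log2 GC-RMA signal of the 14 receptor probe sets on each array, with Runx3-/- as orange squares and WT as blue circles, the mean as a bar and the SD as an error bar (n = 3 each), and the dotted line at the measurable level of 5. Htr1b 1442077_at and Ramp1 1417481_at sit higher in Runx3-/-, Tbxa2r sits lower, Calcrl, Ptger2 and Ptger4 overlap, and 6 probe sets lie below the level on every array.

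Of the 7 members that reached log2 5 on at least 1 array, Ptgir did so only through Runx3-/- arrays. The groups did not overlap for 4 of them (Htr1b, Ramp1, Tbxa2r and Ptgir), as for 22.8% of all 9545 tested genes. The set was chosen for 3 of these 4, and Ptgir entered through the group where it was high, so nothing is read from this count.

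The values depended on single arrays to different degrees. With 1 array left out at a time, the log2 difference was 1.82 to 2.03 for Htr1b, 1.69 to 1.92 for Ramp1, -2.47 to -1.97 for Tbxa2r and 0.72 to 1.06 for Ptgir. It ran from -0.22 to 0.12 for Calcrl, -0.28 to 0.21 for Ptger2 and 0.07 to 0.26 for Ptger4, so that Calcrl and Ptger2 changed sign. Averaging all probe sets of a gene, dim ones included, brought Htr1b to 0.98 and Ramp1 to 0.76.

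**Figure D3:**
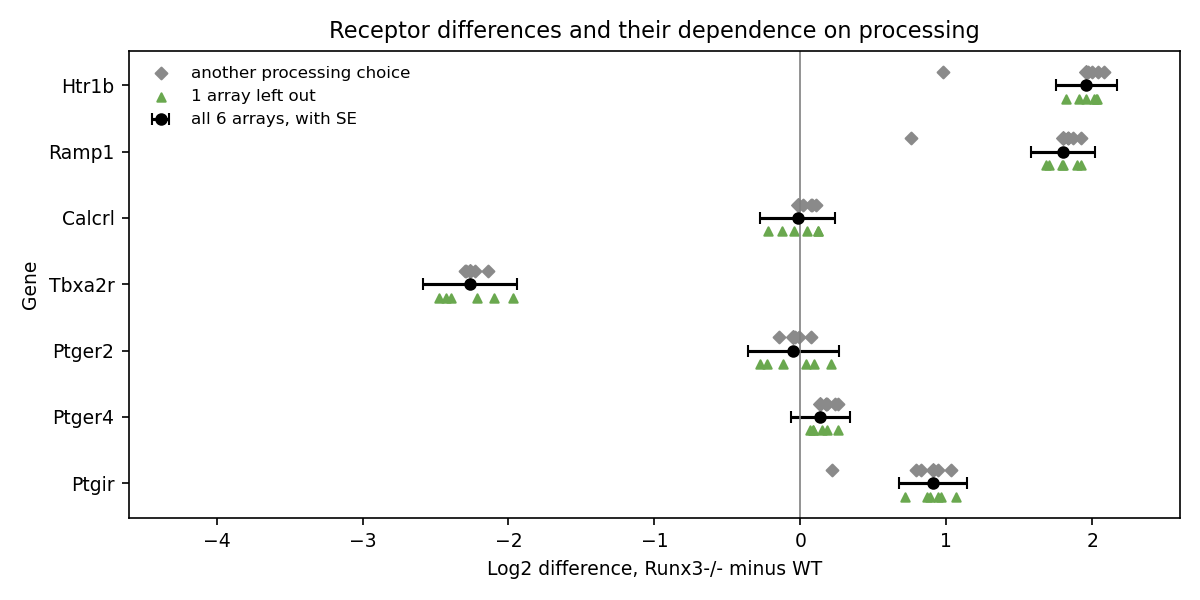
Log2 difference (Runx3-/- minus WT) of the 7 measurable receptors on the x axis, with the value over all 6 arrays as a black point with its SE, other processing choices as grey diamonds and fits with 1 array left out as green triangles. Htr1b, Ramp1, Ptgir and Tbxa2r keep their side of 0 throughout, while Calcrl and Ptger2 fall on both sides.

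Htr1b and Ramp1 were each other's nearest gene. When the profile of every tested gene over the 6 arrays was centred on its mean, the root mean square distance between Htr1b and Ramp1 was 0.123 log2 units, the smallest of 9544 genes for either. For both, Il6, the cytokine interleukin 6, came next (0.172 from Htr1b and 0.197 from Ramp1), then Emilin2, an extracellular matrix glycoprotein (0.242 and 0.206). Il6 read 9.48, 9.20 and 9.03 on the Runx3-/- arrays, against 7.04, 6.94 and 7.36 on the WT arrays. The nearest genes of Tbxa2r were Pik3ip1, an inhibitor of phosphoinositide 3-kinase (0.232), Hsph1, a chaperone of the HSP110 family (0.309), and Arhgef5, a guanine exchange factor (0.335). These distances cover 3 arrays per group and describe likeness of profile alone. Htr1b, Ramp1 and Tbxa2r were chosen by their differences on these same arrays, and those differences enter the distances. Nothing further is therefore read from the closeness of Htr1b and Ramp1.

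Most markers of basophils and mast cells were higher along with Htr1b and Ramp1. Of 14 measurable markers of the 17 listed, 10 were higher in Runx3-/- at the thresholds of the study (unadjusted p under 0.05 and at least 1.5-fold) and none was lower, where 4.89% of all tested genes were higher. This list was written with earlier results of these data known, so the count describes the list and is no test of it. Hdc, Cyp11a1 and Il6 also passed the adjusted threshold of 5% (limma, Benjamini-Hochberg, adjusted p = 0.0373, 0.0486 and 0.0213), which 0.283% of all tested genes passed as higher. With any 1 array other than WT replicate 1 left out, no gene passed it. Il4, Cd200r3, Cma1 and Kit met neither threshold, at log2 differences of 0.89, -0.36, 0.48 and 0.09. Hdc, the histamine-making enzyme, read 12.99, 12.55 and 12.15 on the Runx3-/- arrays, against 10.34, 10.67 and 10.71 on the WT arrays. Mcpt8, the basophil protease, read 12.85, 12.46 and 12.70 in Runx3-/- and 10.34, 11.40 and 11.45 in WT. The log2 of the summed signal of the 14 markers was 15.24 to 15.86 in Runx3-/- and 13.82 to 14.49 in WT, without overlap and with a median log2 difference of 1.59 over the list. Tpsb2 and Mcpt4, proteases of mast cells, were below the measurable level on every array. The part of these markers in the Htr1b and Ramp1 values was not tested.

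Markers of other cell types, whose lists were also written with earlier results of these data known, were read in the same way. At the study's thresholds, macrophage and monocyte markers were higher for 2 of 9 and lower for none, with a summed log2 signal of 13.63, 11.84 and 9.03 on the Runx3-/- arrays, against 11.42, 11.29 and 11.03 on the WT arrays. In the same order, the Runx3-/- arrays read 8.83, 8.62 and 8.73 for Htr1b, 10.13, 9.75 and 9.94 for Ramp1, and 5.55, 4.86 and 5.10 for Ptgir. B cell markers were higher for 3 of 8 (Ms4a1, Cd79a and Cd22) and lower for none, with a median log2 difference of 0.83. Each of the 8 had a higher mean in Runx3-/-. The summed log2 signal of the B cell markers was 13.09, 12.51 and 12.19 in Runx3-/- and 11.74, 12.34 and 12.20 in WT, with overlap. Over all tested genes 4.89% were higher at the study's thresholds. Among the genes called higher, Cd14 of the macrophage and monocyte list reached log2 5 on Runx3-/- replicate 1 only. Cd79a of the B cell list reached it on Runx3-/- arrays only, so nothing is read from these counts. Calcrl and Ramp1 are well known from endothelium. Of the 8 endothelial markers, 6 (Cdh5, Kdr, Tek, Tie1, Emcn and Robo4) were measurable on no array. Egfl7 and Esam reached log2 5 on WT arrays only. Egfl7 read 4.58, 4.97 and 5.37 in WT, and Esam 3.51, 5.04 and 6.06. The part of these cell types in the receptor values was not tested.

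Platelets are rich in the thromboxane receptor, so their markers stand beside Tbxa2r. Of 6 measurable platelet and megakaryocyte markers, 1 was higher (Itgb3) and 1 lower (Gp1bb) in Runx3-/- at the study's thresholds, and Gp9, Gp6 and Treml1 were measurable on no array. Their summed log2 signal was 11.52, 12.22 and 11.50 on the Runx3-/- arrays, against 10.66, 11.41 and 12.20 on the WT arrays, with overlap. In the same array order, Tbxa2r read 6.29, 5.77 and 5.54 in Runx3-/- and 7.87, 7.80 and 8.73 in WT. The part of platelets in the Tbxa2r values was not tested.

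**Figure D4:**
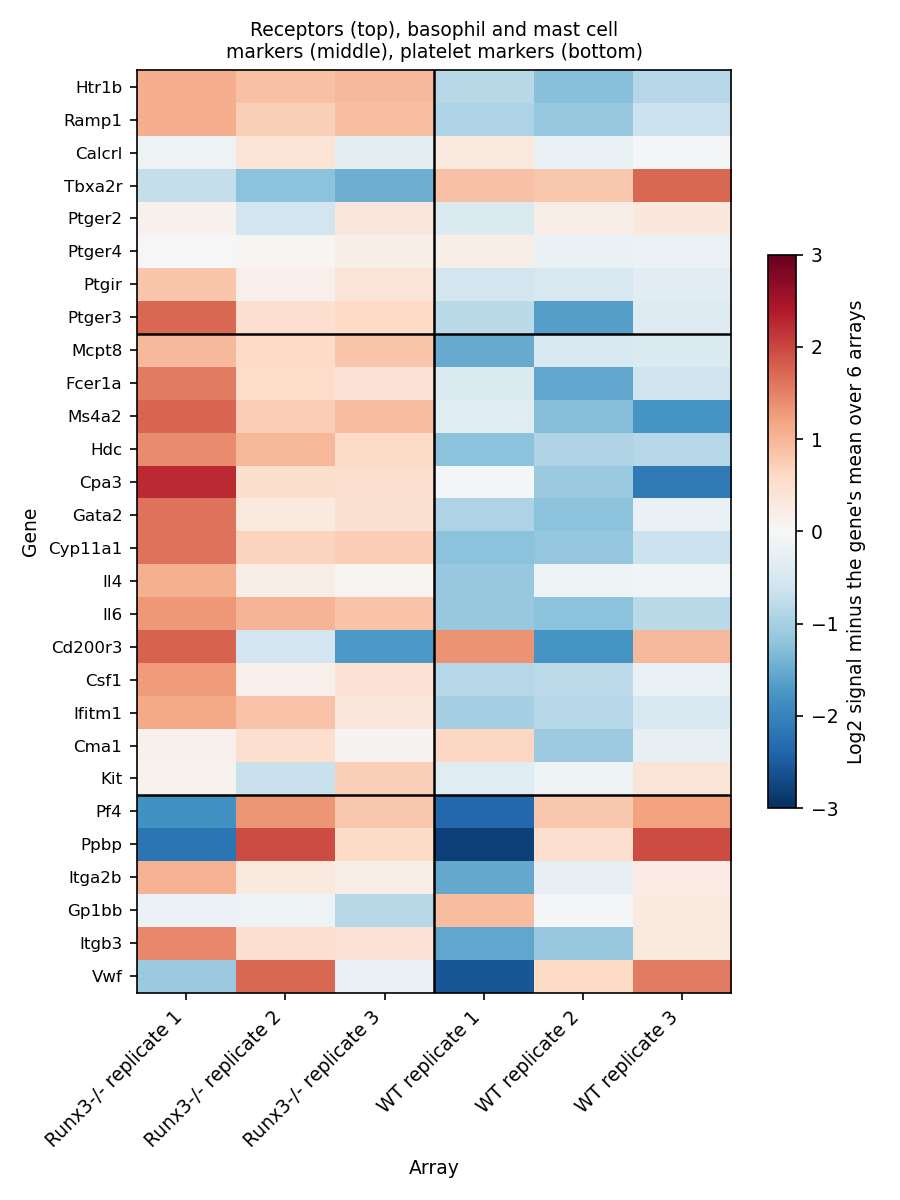
Log2 signal minus the gene's mean over the 6 arrays, in colour from blue (lower) to red (higher), with Runx3-/- arrays in the left columns, WT arrays in the right columns and genes as rows. The 7 measurable receptors and Ptger3 are at the top, 14 basophil and mast cell markers in the middle and 6 platelet markers at the bottom. Htr1b, Ramp1 and Ptger3 are higher on every Runx3-/- array than on any WT array, and Tbxa2r is lower. Of the 14 markers in the middle, 11 have groups without overlap, as do 22.8% of all tested genes, while Cd200r3, Cma1 and Kit overlap.

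The wider signalling systems held 124 further genes, of which 115 had a probe set and 63 were measurable. None of the 63 passed the adjusted threshold (limma, Benjamini-Hochberg over all tested genes), 13 had an unadjusted p under 0.05, and 12 met the study's thresholds (8 higher and 4 lower), 19.0% against 13.8% of all tested genes (4.89% higher and 8.86% lower). Over all tested genes 0.608% passed the adjusted threshold, 0.283% as higher and 0.325% as lower. The groups did not overlap for 17 of them (27.0%), against 22.8% of all tested genes. The median log2 difference of the 63 was 0.10, against -0.13 for all tested genes.

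None of the 12 other serotonin receptors with a probe set reached log2 5 on any array, as neither did the Htr1b probe set designed on its RefSeq mRNA. Among genes for making, moving and breaking down serotonin, 3 of 8 were measurable and 1 met the study's thresholds. Ddc, the decarboxylase that makes serotonin from its precursor, read 5.70, 6.43 and 6.66 on the Runx3-/- arrays, against 6.94, 8.36 and 8.32 on the WT arrays (log2 difference -1.61 ± 0.44, SE, limma adjusted p = 0.160). The groups did not overlap for Ddc. The 5 genes of this list that were not measurable, Tph1 and Tph2 among them, were at or under 3.15 on every array. Slc18a2, the vesicular monoamine transporter, read 5.85 to 7.91 in Runx3-/- and 5.95 to 6.82 in WT.

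In the CGRP system no partner other than Ramp1 and Calcrl was seen. Ramp2, Ramp3, Calcr, Calcb, Adm and Adm2 all stayed at or under 2.87 on every array, so neither the adrenomedullin receptor partners nor the peptides measured gave a signal. Crcp, a protein linked to CGRP receptor signalling that is also an RNA polymerase III subunit, read 8.50 to 8.81 in Runx3-/- and 8.33 to 9.02 in WT.

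Ptger3, the Gi-coupled EP3 receptor for prostaglandin E2 and not of the named set, was the other prostanoid receptor with a large difference. It read 10.71, 9.49 and 9.58 on the Runx3-/- arrays, against 8.18, 7.32 and 8.60 on the WT arrays (log2 difference 1.90 ± 0.43, SE, 3.72-fold, limma adjusted p = 0.126). The groups did not overlap, and Runx3-/- replicate 1 stood above the other arrays. The part of other cell types in the Ptger3 values was not tested. The higher reading of Ptger3 in these data was known when the list was written. Ptger1, Ptgdr2 and Ptgfr were at or under 2.85 on every array. Of the prostaglandin E2 receptors, EP2 and EP4 thus overlapped between the genotypes while EP3 met the study's thresholds. The difference between them was not tested.

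Among 6 measurable genes for prostanoid synthesis, transport and breakdown, Ptges2, a prostaglandin E synthase, read 7.24, 6.67 and 7.02 on the Runx3-/- arrays, against 7.70, 8.04 and 8.03 on the WT arrays (log2 difference -0.95 ± 0.23, SE, limma adjusted p = 0.133). Ptges, another prostaglandin E synthase, was at or under 2.12 on every array. Ptgs2, the inducible cyclooxygenase, was at or under 3.46 on every array. The transporter Abcc4, which exports prostaglandins and cAMP, read 9.30 to 9.58 in Runx3-/- and 8.85 to 9.29 in WT.

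Enzymes that make adenosine outside the cell were measurable although the A2 receptors were not analysed. Nt5e (CD73), which makes adenosine from AMP, read 8.36, 8.65 and 8.31 on the Runx3-/- arrays, against 7.50, 7.74 and 7.78 on the WT arrays (log2 difference 0.77 ± 0.20, SE, limma adjusted p = 0.155), without overlap. Entpd1 (CD39), which makes AMP from ATP, read 8.39, 8.67 and 7.64 on the Runx3-/- arrays, against 7.99, 4.47 and 6.12 on the WT arrays. Its groups overlapped through WT replicate 1, and the log2 difference of 2.04 ± 0.79 (SE, adjusted p = 0.277) was 2.94 without that array and 1.18 without WT replicate 2. Ada and Adk, which remove adenosine, differed by -0.28 and 0.41, neither at the study's thresholds.

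Downstream of the receptors, none of 11 measurable cAMP effectors met either threshold, with a median log2 difference of -0.06. Among 3 measurable adenylyl cyclases, Adcy3 read 7.84, 7.25 and 7.30 on the Runx3-/- arrays, against 8.16, 8.82 and 8.70 on the WT arrays (log2 difference -1.09 ± 0.27, SE, limma adjusted p = 0.135). Among 5 measurable phosphodiesterases that break down cAMP, Pde8a was lower by the study's thresholds (log2 difference -0.64 ± 0.23, SE, adjusted p = 0.254), and Pde3b differed by -0.41. Of 9 measurable G protein alpha subunits, Gna15, a promiscuous subunit of the Gq class, met the study's thresholds (log2 difference 0.75 ± 0.21, SE, adjusted p = 0.160). Gnas, the Gs subunit that EP2, EP4 and the CGRP receptor use, differed by -0.26, and Gnai2, a Gi subunit of the kind 5-HT1B uses, by 0.03.

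Regulators of G protein signalling speed up the switching off of G proteins, and 3 of the 13 measurable genes of receptor desensitisation met the study's thresholds, all higher (23.1%, against 13.8% of all tested genes in either direction). Rgs1 read 8.84, 8.63 and 9.10 on the Runx3-/- arrays, against 8.08, 7.05 and 6.99 on the WT arrays (log2 difference 1.48 ± 0.33, SE, limma adjusted p = 0.117). Rgs18 read 9.12, 9.54 and 8.40 on the Runx3-/- arrays, against 7.86, 6.79 and 7.55 on the WT arrays (log2 difference 1.62 ± 0.38, SE, limma adjusted p = 0.130). Rgs2, a regulator of Gq, differed by 0.71 ± 0.28 (SE, limma adjusted p = 0.286), with overlap. The receptor kinase Grk6 differed by 0.07 and the arrestin Arrb2, which uncouples phosphorylated receptors, by 0.23, and neither they nor the other 8 genes of the list met a threshold.

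Plcb4, a phospholipase C of the route that the thromboxane receptor opens, read 9.14, 8.79 and 8.59 on the Runx3-/- arrays, against 8.82, 6.92 and 5.60 on the WT arrays (log2 difference 1.73 ± 0.71, SE, limma adjusted p = 0.301). The groups overlapped through WT replicate 1, without which the log2 difference was 2.58, and it was 0.97 without WT replicate 3. The other 4 measurable genes of this list, Arhgef1 and Plcb2 among them, met neither threshold.

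**Figure D5:**
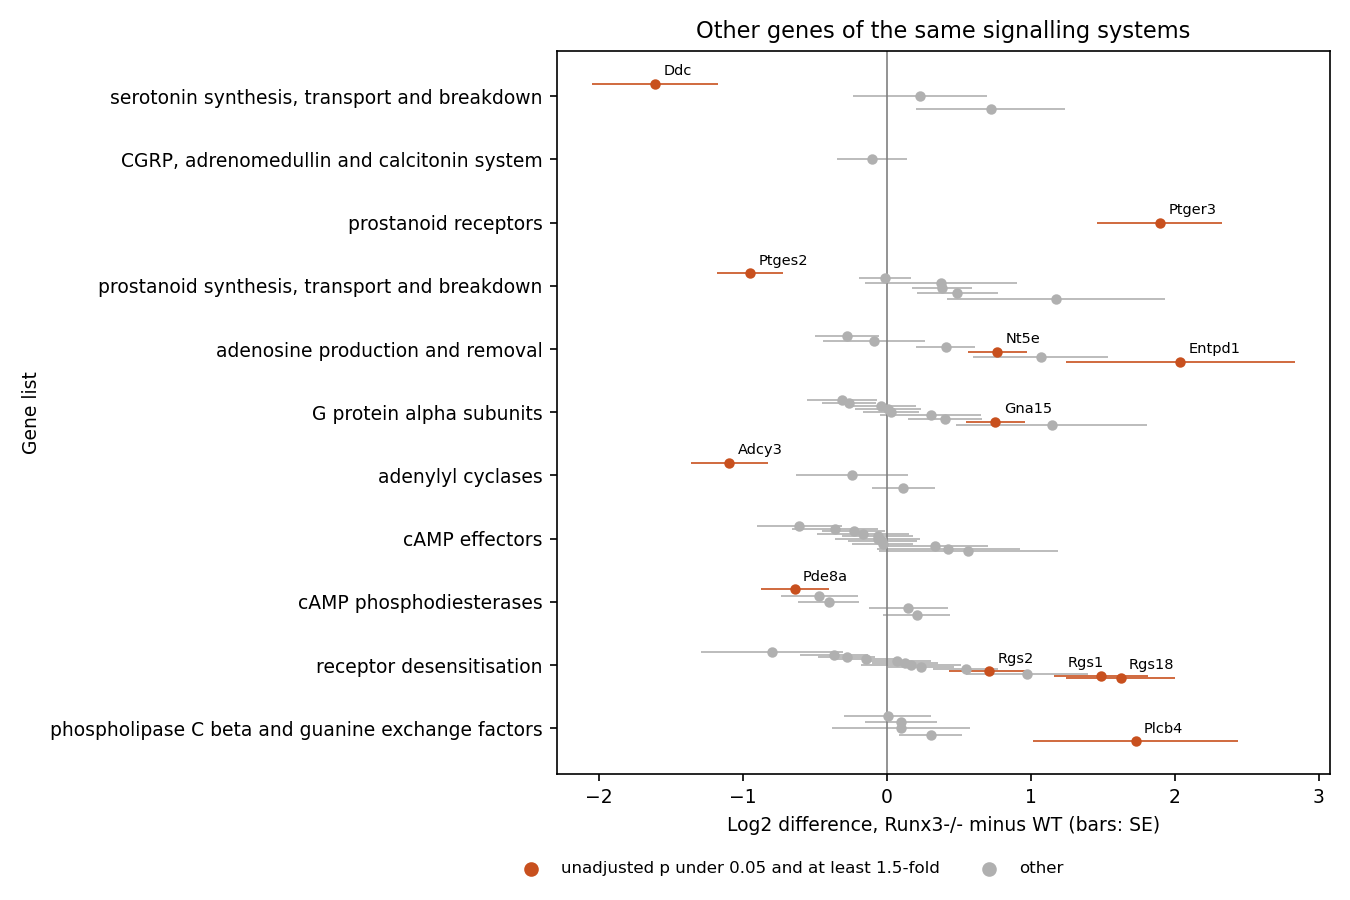
Log2 difference (Runx3-/- minus WT, with SE bars) of the 63 measurable genes of the wider signalling systems, in rows by gene list. Orange points are the 12 genes with an unadjusted p under 0.05 and at least a 1.5-fold difference, 8 to the right of 0 and 4 to the left, and grey points are the other genes.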

How the data were processed

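RNA of splenic NKC from 3 Runx3-/- and 3 WT ICR mice was measured on Affymetrix mouse arrays. The deposited values are log2 signals per probe set, normalised by the authors with GC-RMA in Partek (versions not given in the sources used here). GC-RMA corrects for probe GC content and draws dim probe sets towards a common low level, which can shrink differences there. The study asked for signal above background without giving its level, and log2 5 was used. Arrays carry no read depth, and their number limits precision. Each gene was taken from its probe set of highest mean, and 9545 genes with log2 of at least 5 on 1 array or more were fitted with limma 3.58.1 in R 4.3.3, without covariates, and adjusted by Benjamini-Hochberg at 5%. Of 45101 probe sets, 34945 carried 1 gene symbol, 932 several and 9160 none listed, besides 64 controls. Gene symbols were those of the platform annotation, and 34741 named probe sets matched RefSeq by identifier. The fit was tested on simulated data.

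Named genes were all members, list genes past a threshold and up to 2 more of highest mean level per list, the 3 nearest profiles of Htr1b, Ramp1 and Tbxa2r, Runx3, and markers past a threshold or defining a type. Where every array of a group was below log2 5, its mean was set to 5 for an "at least" fold. The receptors and gene lists were chosen with earlier results of these data known. At the study's thresholds, T cell markers passed for 0 of 6 measurable, and NKC markers were lower for 1 of 11 (Eomes). Neutrophil and dendritic cell markers were higher and lower for 1 each of 7 and of 4. Camp, the lower neutrophil marker, reached log2 5 on WT arrays only. Endothelial (2) and erythroid (1) markers passed for none. Whether the mice were littermates or arrays were run together was not given, so p-values cover the spread between these samples. Alternatives were other levels, normalisations, variance models, probe set rules, a replicate block and leaving out each array.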

Additional observations from a re-analysis of the deposited data

How the results depend on the processing

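All differences of the 7 measurable receptors were recomputed under 18 alternatives, of which centring on the tested genes was chosen after seeing the data. Htr1b, Ramp1, Tbxa2r, Ptger4 and Ptgir kept their direction in each that gave a value. Calcrl kept it in 10 of 17 and Ptger2 in 14 of 18, both near 0 throughout. Ptgir fell to 0.22 with values under log2 5 raised to 5, as that floor takes away the WT readings, and had no value with the level at log2 6.

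The count of genes past the adjusted threshold was 58. It was 1 with every gene tested whatever its level, 37 with values under 5 raised to 5, 203 with array weights, 12 with the mean of all probe sets of a gene, and 1313 at the study's thresholds. The cause was not tested. Leaving out 1 array gave 0 to 127 genes, 127 without WT replicate 1 and 0 without any of the other 5, where 1010 to 1556 genes had an unadjusted p under 0.05. No list gene passed in the main fit. With array weights 3 did (Ptges2, Rgs1 and Adcy3), at the study's thresholds 12, and leaving out 1 array gave 0 to 4, the 4 (Rgs10, Rgs1, Ddc and Plcb4) without WT replicate 1.

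Of the 58 genes 53.4% were lower in Runx3-/-, against 41.7% with the mean of probe sets and 40.7% with centring on the tested genes, which brought the median difference to -0.01. At the study's thresholds the share was 64.4%, and 44.3% with that centring.

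Whether same-numbered arrays of the 2 groups formed pairs was not given, and the main fit did not treat them as pairs. Deviations of same-numbered arrays correlated at 0.07, -0.19 and 0.15, and those of differently numbered arrays at -0.27 to 0.22. With the replicate block no gene passed by limma while 1390 had an unadjusted p under 0.05. With 3 arrays per group these values cannot settle whether pairs existed.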
